A study of Rattus norvegicus with 3 samples.

Results

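The 48 genes described here encode enzymes that remove peroxides, superoxide and reactive electrophiles, and they were read in RNA labelled as rat adrenal medulla after 1 or 7 days in the cold. They were selected on their annotated names, as glutathione transferases (Gsta, Gstm, Gstp, Gstt, Gstk, Gsto, Mgst), glutathione peroxidases (Gpx), peroxiredoxins (Prdx), thioredoxins (Txn), superoxide dismutases (Sod) and 9 single genes of the same system. They are 48 of 14217 genes with a probe set of 1 symbol. Where a gene had several probe sets, 1 was chosen by its mean level over the 7-day array and replicate b of 1 day, so these levels entered the choice and are given as a description. The question put to them was whether any follow Gsta4, which was known from earlier results of these data to read higher at 7 days, so its own values are a description as well. Of 60 protein-coding rat genes in RefSeq whose symbols meet the same rule, 48 were named on a probe set of their own.

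The study measured 1-colour oligonucleotide arrays, 2 from rats kept in the cold for 1 day (called array a and array b after their replicate letters) and 1 from rats kept there for 7 days. All 3 samples were exposed to cold, and no array of unexposed rats was analysed here. The sources used here give no strain, sex, age, temperature or number of animals per array. Whether the 1-day pair stems from different animals is not said either, so p-values measure only the spread between these samples, which may be technical. The values are linear intensities as deposited, with nearly equal trimmed means on the 3 arrays, and differences are given on the log2(intensity + 16) scale, which shrinks those of dim probe sets.

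Glutathione is the abundant small thiol of cells, made in steps catalysed by the Gclc and Gclm subunits of glutamate-cysteine ligase and by Gss, and kept reduced by Gsr. Glutathione peroxidases and peroxiredoxins reduce peroxides with electrons from glutathione or thioredoxin, superoxide dismutases turn superoxide into hydrogen peroxide, and glutathione transferases join glutathione to electrophiles, among them the aldehydes left by lipid peroxidation. Many of these genes are induced by the transcription factor Nrf2 (Nfe2l2) through antioxidant response elements. In the adrenal gland both the breakdown of catecholamines and steroid hydroxylation generate reactive oxygen species.

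Array a stood apart from the other arrays. Its 3′ beta-actin probe set read 231 times the 5′ one, where array b had a ratio of 6.11 and the 7-day array 8.87. The median over the 48 genes of array a minus array b was -0.86 against 0.30 over all genes and -0.85 over the brightest 10% of genes. The comparisons with arrays a and b share the 7-day array. Th, Dbh and Pnmt, which define adrenaline-making chromaffin cells, were bright on every array (79575 to 543430). Genes of the steroid-making cortex, such as Star and Cyp11a1, were bright as well (154155 to 602316).

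Gsta4 and Nqo1 were the members that read higher at 7 days than on both 1-day arrays by at least 1.5-fold, and the letters before their start sites are shown because genes of these families are known Nrf2 targets. Gclm, a textbook Nrf2 target that did not read higher at 7 days, is shown beside them. Each sequence is the 250 bases before the start of the transcript in the RefSeq promoter table of GRCr8, read 5′ to 3′ on the strand of the gene. They lie at chr8:87947015-87947264 on the plus strand for Gsta4, chr19:52220268-52220517 on the minus strand for Nqo1 and chr2:213031885-213032134 on the plus strand for Gclm. Capitals mark a match to the core TGACNNNGC on either strand, which reads GCNNNGTCA on the other.
Gsta4: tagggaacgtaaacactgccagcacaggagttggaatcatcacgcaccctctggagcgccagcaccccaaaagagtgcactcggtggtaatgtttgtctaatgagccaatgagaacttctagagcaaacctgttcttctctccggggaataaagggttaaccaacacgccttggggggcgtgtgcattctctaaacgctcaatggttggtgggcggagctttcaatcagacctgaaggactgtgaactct
Nqo1: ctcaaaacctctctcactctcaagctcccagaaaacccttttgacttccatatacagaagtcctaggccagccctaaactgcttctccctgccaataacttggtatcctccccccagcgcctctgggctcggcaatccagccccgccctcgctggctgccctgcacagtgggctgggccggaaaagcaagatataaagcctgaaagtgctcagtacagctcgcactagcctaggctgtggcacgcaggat
Gclm: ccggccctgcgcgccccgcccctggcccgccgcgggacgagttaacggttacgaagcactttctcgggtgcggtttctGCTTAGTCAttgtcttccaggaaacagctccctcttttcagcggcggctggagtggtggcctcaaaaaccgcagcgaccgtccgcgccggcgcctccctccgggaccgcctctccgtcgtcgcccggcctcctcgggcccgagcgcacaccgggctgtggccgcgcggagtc

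The core was found before Gclm, 164 to 172 bases from its start, and these letters were not in the windows of Gsta4 and Nqo1. Only 250 bases were read, so whether a gene has the core further from its start cannot be told here. Of 39 members with an entry in the table, 8 held a match (20.5%), against 10.1% of all 33469 promoters. These were Gclm, Gpx2, Gsta3, Gstm5, Gstm7, Gstp1, Hmox2 and Sod2. Their difference between the 7-day array and array b had a median of 0.23 and ran from -0.40 to 2.45, while the 31 members without a match had a median of 0.11 and ran from -0.52 to 1.69. A match of letters is a description and not a bound site. Members of both kinds lay on either side of 0.

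Gsta4, an alpha-class transferase that acts on 4-hydroxynonenal and related products of lipid peroxidation, read 1523 on array a, 1369 on array b and 4458 on the 7-day array. On the deposited scale the 1-day arrays lay close together and the 7-day array lay 2.93 and 3.26 times above them in linear intensity. On the log2 scale it stood 1.54 above array a and 1.69 above array b, or 1.62 ± 0.97 above their mean (SE from limma, where all arrays share a spread fitted to intensity). Limma's Benjamini-Hochberg adjusted p was 1.00. Ranked by the smaller of its differences from the 1-day arrays, Gsta4 was number 44 of all 14217 genes and number 1 of the 9252 whose probe set passed a filter on low values (the median of all probe sets). It had 1 probe set, so no second probe set could be compared with it. How close its 1-day values lay depends on the scaling, since the median intensity was 1583 on array a, 593 on array b and 675 at 7 days. With median centring and with quantile normalisation array b was the nearer 1-day array, at 1.51 and 1.44.

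Nqo1, a quinone reductase and the best known Nrf2 target, came next. It read 4013 on array a, 3225 on array b and 6294 at 7 days, which is 0.65 and 0.96 above them on the log2 scale. The 7-day value was outside the range of the 1-day pair, by less than Gsta4 was, and limma gave 0.80 ± 0.91 with an adjusted p of 1.00. Its place by the smaller difference was 299 among all genes and 32 among those passing the filter. Under quantile normalisation, and after removal of the intensity trend, its smaller difference was 0.49 and 0.48, below the 1.5-fold line, so that call depends on the scaling.

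**Figure D1:**
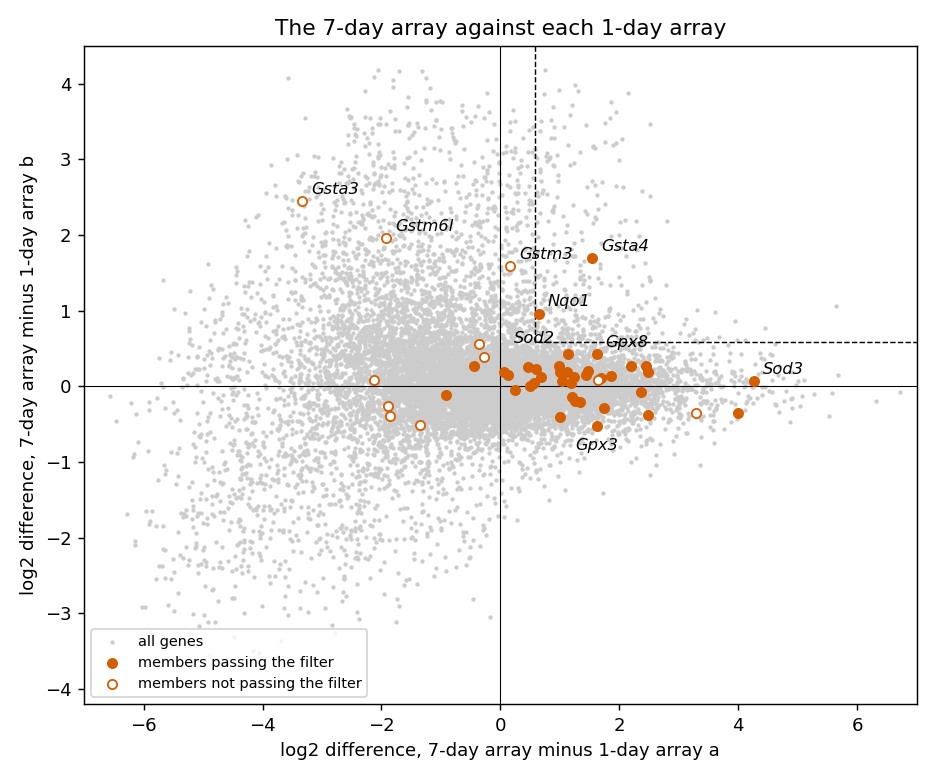
Difference of the 7-day array from array a (horizontal) and from array b (vertical), on the log2 scale, for all 14217 genes in grey and the 48 members in orange, with open circles for members that did not pass the filter on low values; each point is 1 gene. The dashed lines enclose genes at least 1.5-fold above both 1-day arrays, where Gsta4 and Nqo1 are the members present.

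By that 1.5-fold rule 2 of 48 members followed (4.17%), where 2.46% of all genes met it. Both were among the 37 members passing the filter, and 0.54% of the genes passing it met the rule. At 2-fold it was Gsta4 alone, where 0.872% did. Gsta4 was chosen for this pattern, so the 4.17% rests in part on that choice. Without Gsta4 there were 47 members, of which Nqo1 was the 1 that met the rule. Leaving out array a the count was 5, where 16.6% of all genes met it. Leaving out array b it was 31, and the share of all genes was not counted for array a at this size. The 31 therefore have no like background. The median difference from array a was 1.08 over the members, -0.24 over all genes and 0.89 over the brightest 10% of genes. Without a size limit, 43.1% of all genes and 80.9% of the brightest 10% read above array a. Gpx8 (0.43) and Sod2 (0.43) were the next by their smaller difference, below the line. In the other direction 0 members lay at least 1.5-fold below both 1-day arrays, against 6.78% of all genes, 1.66% of genes passing the filter and 0% of the brightest 10%. With quantile normalisation or the intensity trend removed the 2 members were Gsta4 and Gstm3, and with median centring they were 3, namely Gsta4, Gstm3 and Nqo1.

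Counted without a size limit, 27 of 48 members read above both 1-day arrays, where 22.7% of all genes did, and 4 read below both (Gclm, Gsta3l1, Gstm2 and Gsto2), where 25.8% did. The 4 below both became 15 without array a and 10 without array b. By the same comparisons 33 of 48 members read above array b, where 53.8% of all genes did. For array a it was 38 of 48, where 43.1% did. Among members passing the filter 1 read below both, where 24.1% of genes passing it did. Among the brightest 10% of genes 46.1% read above both, and of the 22 members among them 18 did. Against array a alone 38 of 48 members read higher, where 43.1% of all genes did, and among the brightest 10% it was 21 of 22 members and 80.9% of genes. Under quantile normalisation 22 members read above both and 5 below, where 28.2% and 24.4% of all genes did. With the intensity trend removed it was 22 and 6 (27.5% and 24.4% of all genes). With median centring it was 18 and 4 (22.7% and 14.8%). Of the 27, 11 kept their place above both in each of the 7 other ways of scaling, pseudocount and probe set choice: Gpx8, Gsta1, Gsta4, Gstm3, Gstm7, Mgst3, Nqo1, Prdx3, Prdx5, Prdx6 and Sod2.

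Against array b alone, 33 of 48 members read higher at 7 days, where 53.8% of all genes did, and the median difference was 0.12 (interquartile range -0.12 to 0.27) against 0.04 over all genes. Of the members 33 read higher and 15 lower. Quantile normalisation made that split 28 and 20, and centring arrays on their medians made it 20 and 28. Centring moved the median of all genes from 0.04 to -0.15 and that of the members to -0.060. The members' median was above that of all genes on each of these scales. Of 48 members 5 were at least 1.5-fold above array b, where 16.6% of all genes were, and 0 at least 1.5-fold below it, where 8.84% were. Limma, run on both 1-day arrays, called 0 of 15521 probe sets and 0 of the 37 members tested (0%). At an unadjusted p under 0.05 it had 70 probe sets, of which 2 were members, Sod3 and Gstm1, which read 1916 and 645 on array a against 35171 and 13509 on array b. With 1 array at 7 days there is no replicate of that group, and this difference describes these arrays.

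Of the 5 members at least 1.5-fold above array b, the 3 besides Gsta4 and Nqo1 were dim transferases that did not pass the filter. Gsta3, an alpha-class member active in steroid isomerisation, read 1061 on array a, 3.5 on array b and 90.4 at 7 days. Gstm6l read 2111, 128 and 545, and Gstm3 283, 94.7 and 317 in the same order. Gsta3 and Gstm6l therefore lay below array a by 3.34 and 1.92 on the log2 scale while above array b by 2.45 and 1.96. Gstm3 lay 0.16 above array a and 1.59 above array b. The size for Gsta3 depends on the pseudocount, at 4.34 with 1 and 1.19 with 64.

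Among the 4 alpha-class transferases, Gsta4 did not share its pattern with the others. Gsta1 read 34349 on array a, 82893 on array b and 95382 at 7 days, 0.20 above array b. Gsta3l1 read below both, at 306, 165 and 111. Gsta4 lies on chromosome 8, and Gsta1, Gsta3 and Gsta3l1 lie on chromosome 9. Their sequences were not compared, and how far each probe set reads its relatives is unknown here. A probe set annotated to both Gsta5 and Gsta2, outside the rule because it names 2 genes, read 1516, 405 and 648, which is 0.66 above array b and -1.21 relative to array a.

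The genes beside Gsta4 on its chromosome were read for comparison. In the RefSeq order, Gclc is followed by Elovl5, Gcm1, Fbxo9, Cilk1, Gsta4, Gsta5 and Gsta2. Cilk1 stood 0.37 above array b and 0.30 above array a, and Fbxo9 0.42 above array b and -0.09 relative to array a. Elovl5 stood 0.26 above array b and 0.82 above array a. Gclc, the catalytic subunit of glutamate-cysteine ligase and a member, stood at -0.38 and 2.48. Gcm1, a dim probe set that did not pass the filter, read 97.9, 90.9 and 473, which is 2.19 above array b and 2.10 above array a. It was looked up only for its position. The genes beside Nqo1 (Cyb5b, Nfat5, Nob1 and Wwp2) stood 0.10 to 0.46 above array b. Relative to array a they stood at 0.15, -0.73, 0.09 and -1.38 in that order.

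**Figure D2:**
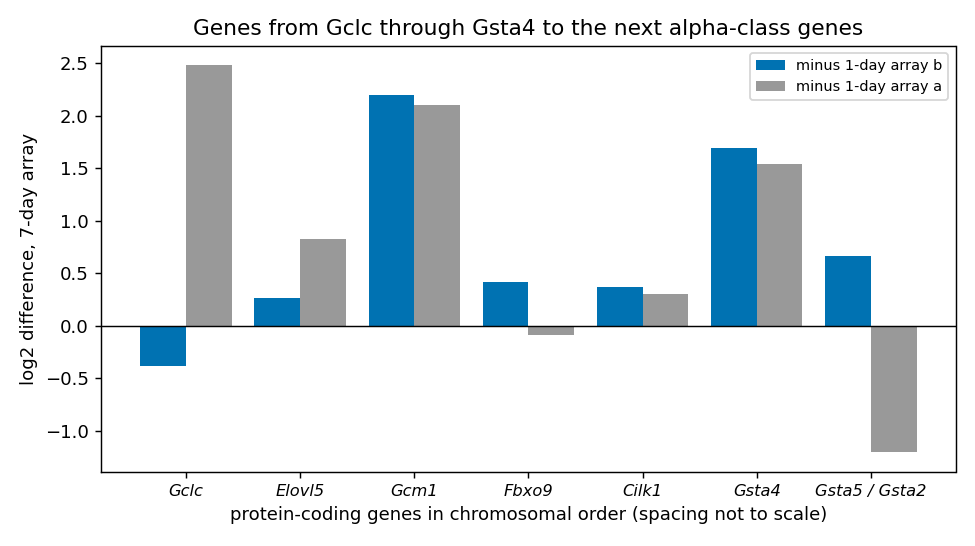
Difference of the 7-day array from array b (blue) and from array a (grey), on the log2 scale, for the protein-coding genes from Gclc to Gsta2 in chromosomal order, with 1 bar per array comparison and no replicates. Gsta4 and the dim gene Gcm1 read well above both 1-day arrays. Between them Fbxo9 stood at 0.42 and -0.09, and Cilk1 at 0.37 and 0.30, relative to arrays b and a.

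The 7 mu-class transferases, cytosolic enzymes with broad and overlapping substrates, were split. Gstm1 read 645 on array a, 13509 on array b and 10545 at 7 days, so the 7-day value lay between the 1-day arrays. Gstm1, Gstm2, Gstm4 and Gstm5 stood at -0.36, -0.39, -0.14 and -0.40 relative to array b, and lay below it in all of the other settings. Gstm7 read 4891, 8010 and 9682, 0.27 above array b. These genes are related, so the probe sets may read each other's transcripts, which was not checked.

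Transferases of the remaining cytosolic and mitochondrial classes lay close to array b. Gstp1, the pi-class enzyme, read 11988 on array a, 34892 on array b and 30322 at 7 days (-0.20), and Gstp3 was near background at 328, 58.1 and 62.3. In the theta class Gstt3 read 39348, 56218 and 58127, with Gstt1 0.12 above array b and Gstt2 at -0.05. The kappa-class Gstk1, of mitochondria and peroxisomes, read 5443, 10670 and 11212. The omega-class Gsto1, which also reduces dehydroascorbate, read 9838, 32296 and 35646. Apart from Gsto2, all of these lay within 0.21 of array b on the log2 scale. Gsto2 read 1493, 469 and 389, below both 1-day arrays.

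The microsomal transferases are membrane enzymes, of which Mgst1 protects membranes from lipid peroxides. Mgst1 read 55783 on array a, 97076 on array b and 111232 at 7 days, Mgst2 32926, 32325 and 35989, and Mgst3 3605, 17870 and 20353. All 3 read above both 1-day arrays, by 0.15 to 0.20 against array b, where 46.1% of the brightest 10% of genes, to which they belong, read above both. With quantile normalisation 1 of 3 read above both. Mgst1 turned to -0.03 with quantile normalisation, and Mgst2 to -0.03 with median centring.

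**Figure D3:**
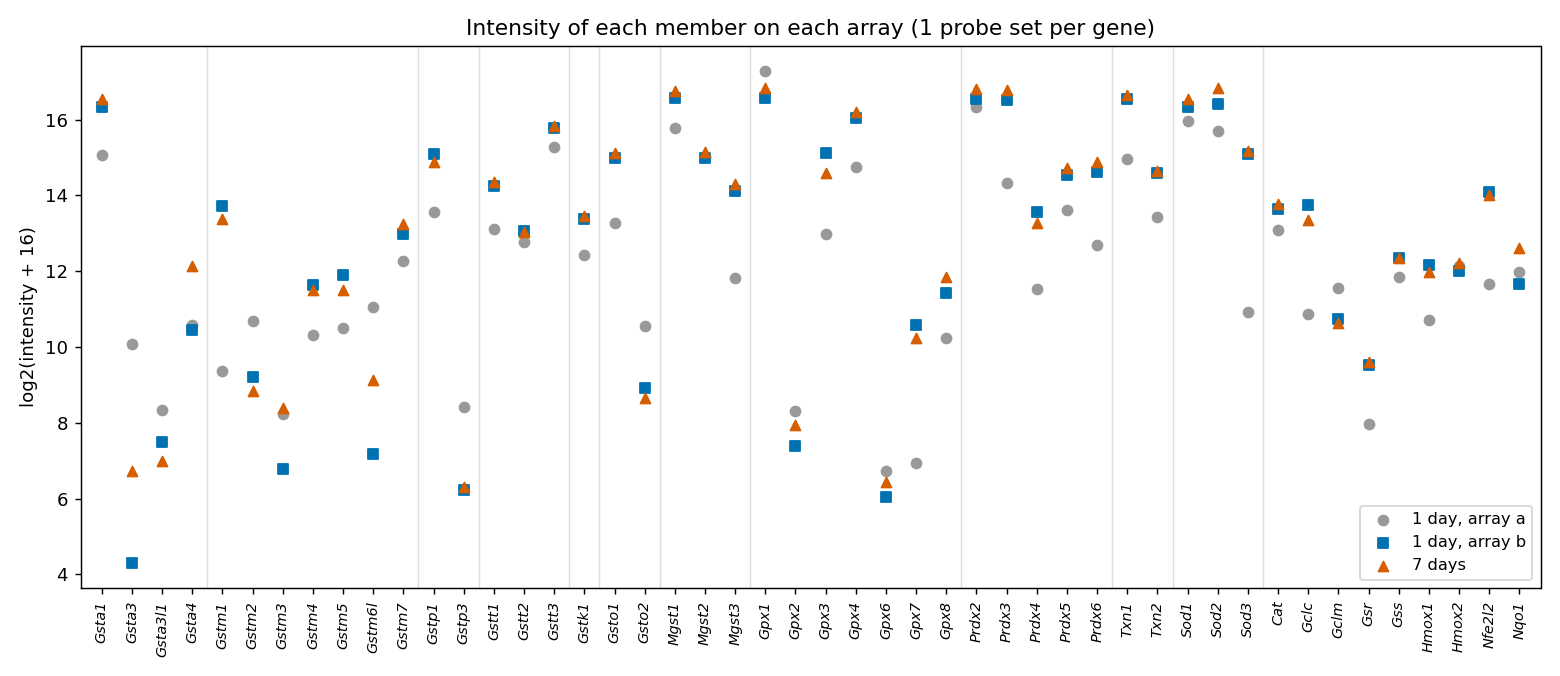
Level of each of the 48 members as log2(intensity + 16) on array a (grey circles), array b (blue squares) and the 7-day array (orange triangles), grouped by family and separated by vertical lines; each point is 1 array and levels of different genes are not comparable. The blue and orange points lie close together for most members and apart for Gsta4, Nqo1, Gsta3, Gstm3 and Gstm6l, and the grey points depart from both in many.

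Glutathione peroxidases reduce hydrogen peroxide and lipid hydroperoxides, and their 7 measured genes had no common direction. Gpx1, the cytosolic enzyme, read 160726 on array a, 97197 on array b and 117570 at 7 days, between the 1-day arrays. Gpx4, which acts on lipid peroxides in membranes, read 27719, 67985 and 75339, 0.15 above array b (-0.03 with median centring), while a second and dim Gpx4 probe set stood at -0.74. Gpx8, of the endoplasmic reticulum, read 1183, 2719 and 3672, above both arrays and 0.43 above array b. Gpx3, the secreted form, read below array b, at 8080, 35796 and 24880 (-0.52, and -0.71 to -0.55 across the scalings). Gpx7 was lower than array b as well (-0.35), and Gpx2 and Gpx6 were dim, at 50.4 to 302.

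Peroxiredoxins are abundant thiol peroxidases served by thioredoxin. Prdx3, the mitochondrial form, read 20540 on array a, 93466 on array b and 112888 at 7 days. Prdx2 read 82778, 95555 and 114195, and Prdx6 6546, 24902 and 29939. With Prdx5 (0.19) these 4 stood 0.19 to 0.27 above array b and above both 1-day arrays, and above array b by 0.01 to 0.09 with median centring. Of the brightest 10% of genes, to which these 4 belong, 46.1% read above both. Prdx4, of the endoplasmic reticulum, differed in direction, at 2937, 11991 and 9849 (-0.28). Prdx1 was on a probe set shared with Prdx1l1, which stood 0.11 above array b.

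Txn1, the cytosolic form, read 31972 on array a, 95725 on array b and 103093 at 7 days, and the mitochondrial Txn2 11116, 24698 and 25410. Their differences from array b were 0.11 and 0.04, and both turned negative with median centring (-0.07 and -0.14), Txn1 also with quantile normalisation (-0.08).

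The 3 superoxide dismutases read above both 1-day arrays, where 46.1% of the brightest 10% of genes, to which they belong, did. With median centring or the intensity trend removed, 2 of 3 did. Sod2, the manganese enzyme of mitochondria, read 53499 on array a, 87396 on array b and 117418 at 7 days, 0.43 above array b and 0.24 to 0.34 above it under the 3 other scalings. It had the highest difference above array b among members in the brightest 10% of genes. Sod1, the cytosolic enzyme, read 63578, 82091 and 96368 (0.23), and the extracellular Sod3 1916, 35171 and 36961 (0.07, and -0.11 with median centring).

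Among the single genes, the Nrf2 factor and its classical targets did not share the place of Nqo1. Nfe2l2 itself read 3221 on array a, 17479 on array b and 16639 at 7 days (-0.07 relative to array b). Hmox1, the inducible heme oxygenase, read 1670, 4580 and 3995 (-0.20), Gclc 1870, 13691 and 10495 (-0.38), and Gclm 2989, 1700 and 1576 (-0.11). These 4 read below array b in all of the other settings, and Gclm below both 1-day arrays, except with median centring. Gss (0.01), Gsr (0.09) and Cat, the peroxisomal catalase (0.12), differed from array b by less than the constitutive Hmox2 (0.20). Both probe sets of Gclc read below array b (-0.38 and -0.04), while those of Gstt2 (-0.05 and 0.23) and Gpx4 differed in direction.

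Genes of the same pathways outside the rule were read in 6 lists. For comparison, 53.8% of all genes and 48.5% of genes passing the filter read above array b. Of 13 thiol reductases and their regulators 8 read above array b and 5 below, from Glrx (-0.58) to Msrb1 (0.43). Of 11 genes of glutathione supply and turnover 6 read above and 5 below, from Oplah (-0.64) to Ggt1 (1.76). Ggt1, which starts the breakdown of extracellular glutathione, was dim (247, 123 and 455) and did not pass the filter. It was the 1 companion gene at least 1.5-fold above both 1-day arrays, where 2.46% of all genes were. Slc7a11, the cystine importer, read 1404, 514 and 1016, 0.96 above array b and below array a.

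Of 8 genes of NADPH supply 5 read above array b and 3 below, from Idh1 (-0.19) to Me1 (0.46), where 53.8% of all genes read above it. Of 23 genes of Nrf2 control and its targets 13 read above and 10 below, with Abcc2 (-2.12) and Aldh3a1 (0.97) at the ends, both dim. Of these 23, 8 read above both 1-day arrays and 6 below both, where 22.7% and 25.8% of all genes did. Keap1, which holds Nrf2 in check, stood at -0.09. Of 13 genes that clear aldehydes of lipid peroxidation, the closest in function to Gsta4, 9 read above array b and 4 below, from Aldh1a1 (-0.47) to Ptgr1 (0.39). All 13 passed the filter, and 8 read above both 1-day arrays, where 25.5% of genes passing it did. Of the brightest 10% of genes 46.1% did, and several of the 13 were bright, among them Akr1b7 (227363 at 7 days) and Akr1a1 (78910). At 1.5-fold above both 1-day arrays the count of the 13 was 0. Of genes passing the filter 0.54% were, so 13 genes are too few to differ from that share. Of 8 sources of peroxide or superoxide 2 read above and 6 below, from Nox4 (-0.99) to Hao2 (0.30). The list medians against array b were 0.16, 0.20, 0.11, 0.08, 0.15 and -0.17 in that order, beside 0.04 over all genes. Against array a they were 0.42, -0.46, 0.50, 0.02, 0.82 and 0.68, beside -0.24 over all genes, so the direction of the glutathione supply list and of the peroxide sources differed between the 1-day arrays. With median centring they were -0.03, 0.02, -0.08, -0.11, -0.03 and -0.35.

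**Figure D4:**
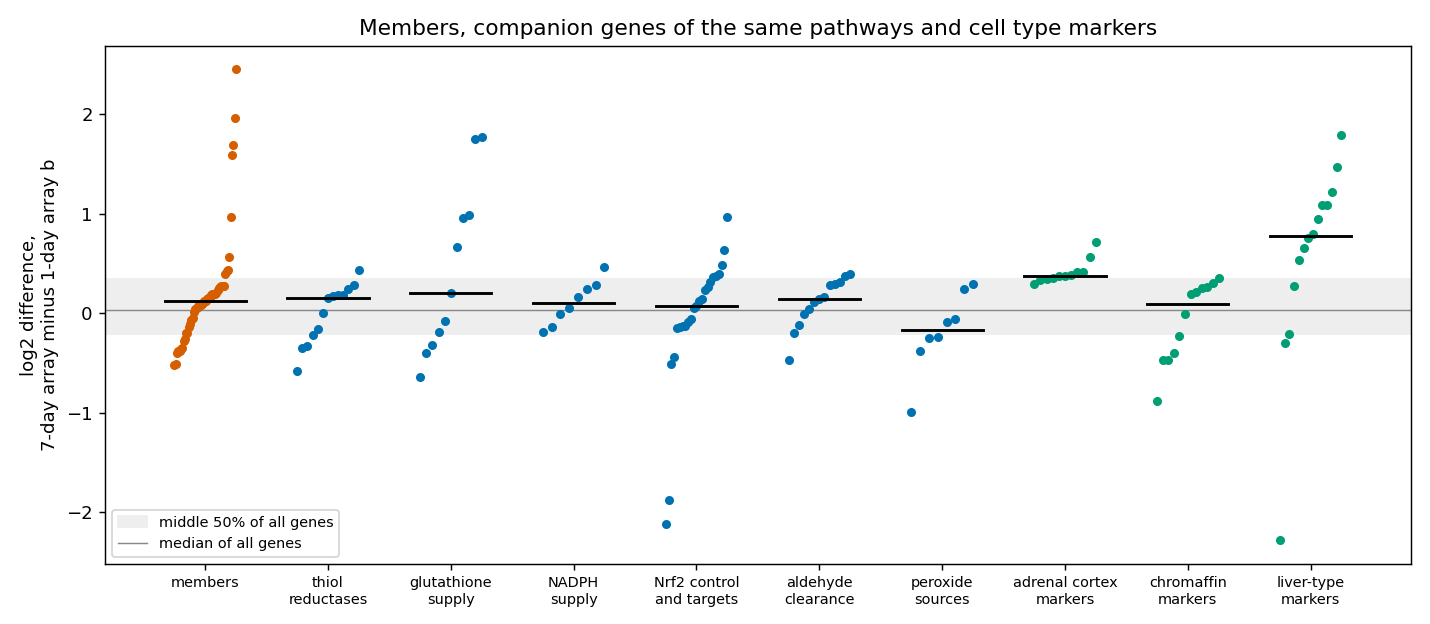
Difference of the 7-day array from array b on the log2 scale for the 48 members (orange), the 6 lists of companion genes (blue) and 3 lists of cell type markers (green); each point is 1 gene, black bars are list medians, the grey band is the middle 50% of all genes and the grey line their median. The 11 adrenal cortex markers all lie above 0 (0.29 to 0.57, and 0.72 for the dim Cyp17a1), while the members lie on both sides.

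Markers of the cell types that the sample could hold also differed between the arrays. All 11 measured markers of the adrenal cortex read above array b (0.29 to 0.72), as they did under each scaling, and 10 of 11 did with the mean of all probe sets. Of all genes 53.8% read above array b, and of the brightest 10% it was 57.7%. The 0.72 was that of Cyp17a1, the 1 of these not passing the filter, which was dim (70.5, 66.0 and 119). The next highest was Cyp11b1 (0.57). Against array a 7 of 11 read higher, while Star (-1.12 relative to array a), Fdx1 (-0.90), Cyp21a1 (-0.79) and Hsd3b1 (-0.70) read lower. The 11 intensities summed to 2129336 on array a, 1268546 on array b and 1654345 at 7 days, the order of all sums here. The part of cortex RNA in the members' differences was not tested, and in bulk RNA a change in the share of a cell type and a change in RNA per cell cannot be told apart. Of 14 liver-type genes 11 read above array b with a median of 0.78, but the median against array a was -0.73 and 5 of 14 read above both, with 8 of the 14 not passing the filter, Alb at 979, 137 and 226, and sums of 19244, 20492 and 29493. Gsta4 and Nqo1 were not on these lists, and the part of such RNA in their values was not tested.

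Of 12 chromaffin markers 6 read above array b and 6 below (sums 2453244, 1143029 and 1299848), where 53.8% of all genes read above it. Of 11 macrophage and lymphocyte markers 2 read above and 9 below (24116, 74162 and 66079). Endothelial markers had 5 of 6 above (46378, 50416 and 52533), Schwann and sustentacular markers 3 of 4 (9720, 5383 and 6520), erythrocyte markers 3 of 3 (7715, 28129 and 29499), fat markers 4 of 7 (13761, 19570 and 21519) and skeletal muscle markers 5 of 6 (147972, 49153 and 66647). No measured marker was listed at 0. A sum follows its brightest genes: Myh1 was 144760 of the muscle sum on array a, and 8 of 12 chromaffin markers read lower on array a than on array b although their sum was higher. Relative to array a, the medians of 7 days were 0.45 for chromaffin, 0.21 for macrophage and lymphocyte, 0.17 for endothelial, -0.30 for Schwann, -1.14 for erythrocyte, -1.75 for fat and -0.51 for muscle markers.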

How the data were processed

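Values are linear intensities, 1 for each array and probe set, as deposited. The authors' software is not given in the sources used here. A 2% trimmed mean was 2501 on each array. No array was rescaled here, and values became log2(intensity + 16). The 57 control probe sets were left out.

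Names came from the platform annotation, updated through Entrez identifiers in RefSeq (GRCr8), except that members keep the annotated symbol the rule reads. Each gene was represented by the probe set with the highest mean over 1-day array b and the 7-day array. Members were all genes meeting the name rule, where a prefix is followed by nothing or a digit. The members, companion lists and marker lists were chosen with earlier results of these data known. Values per array are given for Gsta4, members 1.5-fold or more from both 1-day arrays or from array b, and the probe set with the highest level in each family, with others added after their values were seen. Of each companion list the highest and lowest gene are named, and Slc7a11 and Keap1 are named besides.

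Limma (lmFit, then eBayes with trend = TRUE; two-sided, Benjamini-Hochberg, 0.05) compared 7 days with 1 day on the 15521 probe sets whose mean log2 value reached the median of 9.60 (an intensity of 759). Only arrays a and b give it a spread (1 residual degree of freedom), which the lone 7-day array is assumed to share. Alternatives varied the pseudocount, scaling, filter, probe set choice, limma options and arrays used. The number of arrays limits the precision. R 4.3.3, limma 3.58.1, Python 3.11.15 and matplotlib 3.10.9 were used.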

Additional observations from a re-analysis of the deposited data

How the results depend on the processing

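Pseudocounts of 1 and 64, quantile normalisation, median centring, removal of a loess intensity trend (span 0.5), the mean of all probe sets, the probe set with the highest mean over 3 arrays and a filter on low values were tried. The median difference of the members from 1-day array b was 0.12 and turned to -0.060 with median centring. The smaller difference of Gsta4 from the 1-day arrays, 1.54, was 1.44 to 1.55 under the scalings, pseudocounts and probe set choices except with the intensity trend removed, where it was 1.71. Members below both 1-day arrays numbered 1 rather than 4 once only those passing the filter were kept. Leaving out 1-day array a and then array b gave 5 and 31 members at least 1.5-fold above what was left, against 2. It gave 15 and 10 members below what was left, against 4, since a single array is easier to pass than both. Above what was left were 33 and 38 members, where 53.8% and 43.1% of all genes read above array b and array a. Of all genes 16.6% were at least 1.5-fold above array b. The share at least 1.5-fold above array a was not counted, so the 31 members have no like background. Limma called 0 members under each pseudocount, quantile normalisation, median centring, both filter changes (none, or the 75th percentile), no trend and robust = TRUE, with adjusted p-values of 1.00 at the lowest and 0 to 2 members below an unadjusted 0.05. Limma could not be run without a 1-day array, since no residual degree of freedom was left. No paired analysis was possible because the groups share only the replicate letter a.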
